A study of Homo sapiens with 8 samples.

Results

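The genes described here are the long intergenic noncoding RNAs whose symbol is LINC followed by digits. Their members were found by matching the transcript accession of each array probe to the RefSeq gene table and keeping every symbol of that form. This match used no measured value, but the set of genes was chosen with earlier results of these data known. There were 244 such probes for 194 LINC genes among 19053 genes matched on the array, and 158 of the 194 were represented by 1 probe and 36 by 2 or more. The RefSeq table holds 2304 symbols of this form, and the others had no probe matched here.

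Long noncoding RNAs are transcripts without a recognized protein product that are mostly made by RNA polymerase II, spliced and often polyadenylated, and many are present at low levels in few cell types. A LINC number is a registry name for a transcript with no known function at naming, so the LINC genes are a naming class and not a pathway. Some have since been studied closely, and LINC00473 is known as a target of the cAMP-responsive factor CREB and its CRTC coactivators that is abundant in lung cancer lines lacking the kinase LKB1, of which A549 is one.

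A549 is an established human lung carcinoma line. In the EEDS series, A549 cells received the vehicle or 1.25, 5 or 20 μg/mL EEDS, the ethanol extract of Descurainia sophia seeds, and in the helveticoside series they received a separate vehicle or 3.75, 15 or 60 nM helveticoside, a cardiac glycoside isolated from that extract. Each of the 8 conditions was measured on 1 single-colour Agilent whole human genome array with equal parts of RNA from 3 cultures, so no dose has a replicate, single doses carry no p-value, and precision is limited by the array number. The sample labels give 48 h of exposure and the methods 24 h, and all groups share the unmodified A549 background. Because the doses of the agents are in different units, their values are set side by side, and no dose of one is taken as matched to a dose of the other.

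Levels below are log2 quantile-normalized intensities, and a log2 ratio is a dose minus its own series' vehicle, so that a value of 1 is a 2-fold difference. A level shows how bright one probe was and was not set against the level of another. Where the scanner software did not call a probe well above background on one of the arrays compared, only a bound is given, written as at least a fold.

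The promoters of 143 LINC genes were present in the RefSeq promoter table. Those of 4 genes are shown because the results turn on them: LINC00473 and LINC01119, which fell with the dose of both agents, LINC00205, which fell beside a divergent neighbour that was higher, and LINC00938, which was higher on all treated arrays. Each runs from 250 bases before to 50 bases after the annotated start on GRCh38.p14, 5′ to 3′ along the gene's own strand. Capitals mark matches on either strand to the short CRE TGACG, the first 5 letters of the full CRE, or to CCAAT.

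LINC00473, chr6:165987990-165988289, minus strand: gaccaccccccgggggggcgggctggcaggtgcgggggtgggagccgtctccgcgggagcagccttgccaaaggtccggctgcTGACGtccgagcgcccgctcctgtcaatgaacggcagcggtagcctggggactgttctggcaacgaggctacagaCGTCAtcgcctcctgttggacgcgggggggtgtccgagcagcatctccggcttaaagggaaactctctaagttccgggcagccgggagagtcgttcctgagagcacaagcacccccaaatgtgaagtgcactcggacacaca

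LINC01119, chr2:46827614-46827913, plus strand: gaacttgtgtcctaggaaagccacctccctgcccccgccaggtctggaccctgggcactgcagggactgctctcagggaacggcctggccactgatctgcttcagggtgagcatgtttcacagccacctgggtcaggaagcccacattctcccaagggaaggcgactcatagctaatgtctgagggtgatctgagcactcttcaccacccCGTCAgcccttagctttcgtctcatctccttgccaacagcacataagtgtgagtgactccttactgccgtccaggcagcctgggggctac

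LINC00205, chr21:45287802-45288101, plus strand: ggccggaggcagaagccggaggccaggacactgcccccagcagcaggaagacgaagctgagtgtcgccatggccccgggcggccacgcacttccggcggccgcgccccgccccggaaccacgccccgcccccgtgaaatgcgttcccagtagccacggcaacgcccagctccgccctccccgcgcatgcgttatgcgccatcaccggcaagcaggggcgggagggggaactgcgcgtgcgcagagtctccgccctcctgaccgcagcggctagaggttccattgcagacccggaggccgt

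LINC00938, chr12:45727872-45728171, minus strand: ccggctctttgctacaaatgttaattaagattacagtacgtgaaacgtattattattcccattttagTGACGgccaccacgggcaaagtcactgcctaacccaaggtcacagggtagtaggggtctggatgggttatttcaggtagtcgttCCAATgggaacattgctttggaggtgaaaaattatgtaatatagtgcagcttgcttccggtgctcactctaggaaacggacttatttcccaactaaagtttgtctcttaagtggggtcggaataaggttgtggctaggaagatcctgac

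The LINC00473 window holds the short CRE at 2 places, that of LINC01119 at 1 place, and that of LINC00938 holds 1 short CRE and 1 CCAAT. None of the letters searched was found in the LINC00205 window. Over all LINC promoters, the short CRE occurred in 40 of 143, against 6828 of 27305 promoters of the same length. The full CRE TGACGTCA occurred in 2 of the 143, against 540 of all promoters. The other searches, on both strands, gave 6.99% against 4.92% for AP-1 TGACTCA, 12.6% against 7.43% for the E-box CACGTG, 0.699% against 0.784% for the EGR site GCGTGGGCG, 14.7% against 12.0% for the TATA letters TATAAA, 38.5% against 35.7% for CCAAT, 0.699% against 1.28% for the CArG box and 3.50% against 5.72% for the NF-kappa B site.

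Most LINC genes gave no usable signal in A549 cells. The probe was well above background on all 8 arrays for 44 of 194 LINC genes or 22.7%, on 1 to 7 arrays for 49, and on none for 101 or 52.1%. Over all genes matched, 60.3% were well above background on all 8 arrays and 22.5% on none. Per array, 73, 65, 65 and 63 LINC genes were well above background from the EEDS vehicle to 20 μg/mL, and 61, 49, 61 and 57 from the helveticoside vehicle to 60 nM. Over all genes the share was also lower in the helveticoside series, at 63.4% to 67.2% against 70.3% to 71.9%.

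**Figure D1:**
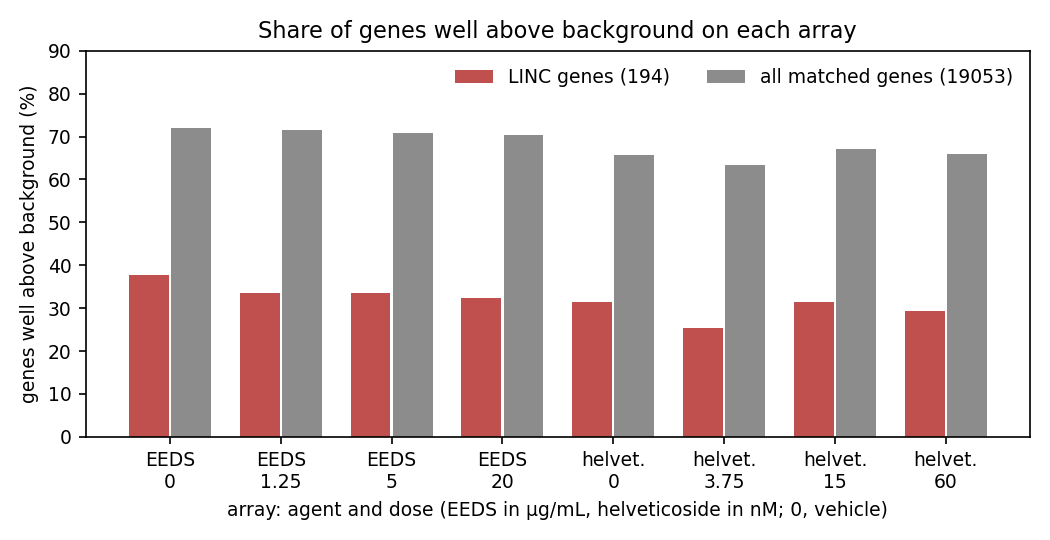
Share of genes well above background (%) on each of the 8 arrays, for the 194 LINC genes (red bars) and all 19053 matched genes (grey bars). The LINC share lies between 25.3% and 37.6% on every array, below the 63.4% to 71.9% of all genes.

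The arrays each held 43118 probe spots with 246 to 331 outlier spots and no saturated spot, a median signal of 182 to 278 and a median local background of 27 to 34. All 12 matched markers of A549 cells, among them KRT8, KRT18 and AKR1B10, were well above background on all 8 arrays, and their summed log2 level ranged from 19.18 to 20.26. At the top doses, 4 of these 12 markers were more than 2-fold lower with EEDS and 5 with helveticoside, none was higher, and the part of this in the LINC results was not tested. The defining markers CD3E and HBB of blood, PECAM1 and VWF of endothelium, DCN and PDGFRB of fibroblasts and SFTPB and NKX2-1 of alveolar type 2 cells were well above background on no array. In these pooled cultures, fewer cells and less RNA per cell cannot be told apart.

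The number of LINC genes past 2-fold grew with the dose of both agents, and at the top doses the lower ones outnumbered the higher ones. With 1.25 μg/mL EEDS, 5 of 62 LINC genes called well above background with and without the agent were more than 2-fold higher and 1 was lower, where 3.74% and 3% of all genes were. With 5 μg/mL, 5 of 61 were higher and 6 lower, where 7.6% and 8.3% of all genes were. With 20 μg/mL, 6 of 58 were higher and 10 lower, or 10.3% and 17.2%, beside 15% and 15.9% of all genes. Scaling to the 75th percentile, which shifted the median of all genes by -0.36 at this dose, gave 3 higher and 13 lower, and it gave 5 and 3 at 1.25 μg/mL. The authors' deposited table gave 4 higher and 8 lower at 5 μg/mL and 8 higher and 13 lower at 20 μg/mL.

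With helveticoside, 2 of 48 LINC genes were higher and 0 lower at 3.75 nM, beside 1.24% and 1.19% of all genes. At 15 nM, 3 of 54 were higher and 4 lower, beside 5.52% and 6.7%. At 60 nM, 5 of 52 were higher and 9 lower, or 9.62% and 17.3%, beside 11% and 13%. At 15 nM, scaling to the 75th percentile gave 1 higher and 3 lower and the deposited table gave 0 and 2, and at 60 nM the deposited table gave 1 and 5. The top-dose shares are near those of all genes. With the signal as scanned, without background subtraction, 20 μg/mL EEDS gave 2 higher and 9 lower LINC genes and 60 nM helveticoside gave 1 higher and 7 lower.

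Some LINC genes were past 2-fold at the top doses of both agents. Of the 10 lower with EEDS and the 9 lower with helveticoside, 7 were the same, which is 70.0% of the first list and 77.8% of the second: LINC00173, LINC00313, LINC00339, LINC00467, LINC00473, LINC00847 and LINC00923. Over all genes, 1306 were lower with both, or 63.3% of the 2062 lower with EEDS and 84.5% of the 1546 lower with helveticoside. These lists leave out bounds. LINC01119, on the EEDS list, was at least 2-fold lower by bound at 60 nM helveticoside. LINC00205 and LINC00239 were at least 2-fold lower by bound with both agents and are on neither list. Of the 6 and 5 LINC genes that were higher, LINC00926 and LINC00938 were shared, or 33.3% and 40.0%. Over all genes, 1102 were higher with both, or 56.5% of 1950 and 84.1% of 1311. Over the 44 LINC genes well above background on all 8 arrays, the log2 ratios at the top doses correlated with Pearson's r at 0.81 and Spearman's rho at 0.78, and 34 of 44 had the same sign. These are values across genes of the same arrays, and genes are not independent replicates. Over all 11496 such genes r was 0.93. At the low doses r was 0.45 for the LINC genes and 0.50 for all genes.

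**Figure D2:**
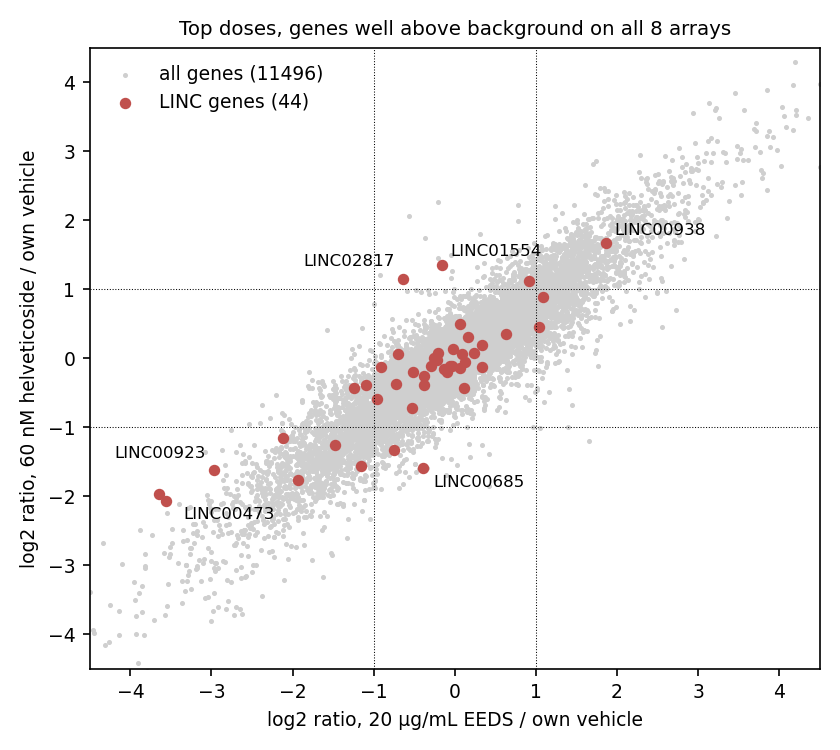
Log2 ratio at 20 μg/mL EEDS (horizontal) and at 60 nM helveticoside (vertical), each against its own vehicle, for the 44 LINC genes (red) and all 11496 genes (grey) well above background on all 8 arrays, with dotted lines at 2-fold. Genes beyond the axis limits are not drawn. LINC00473 and LINC00923 lie low on both axes, LINC00938 lies high on both, and LINC01554 and LINC02817 are above 2-fold with helveticoside alone.

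A dose trend was tested with limma as the slope per dose step over all 8 arrays, in which the scatter of the arrays about the trend lines stands in for replicate error. With EEDS, 3 of the 194 LINC genes rose and 12 fell at an adjusted p under 0.05, or 1.55% and 6.19%, beside 7.26% rising and 7.85% falling among all genes. With helveticoside, 2 rose and 6 fell, or 1.03% and 3.09%, beside 5.46% and 5.79%. Of the 194, 101 were well above background on no array, or 52.1%, beside 22.5% of all genes. When the trend was fitted only to genes called on every array, 2 of 44 LINC genes rose and 11 fell with EEDS. Of all 11496 such genes, 1725 rose and 1874 fell. With helveticoside 3 rose and 6 fell, beside 1324 and 1447. In that fit the falling LINC share with EEDS was above that of all genes, and that with helveticoside was near it. The rising shares stayed lower. With the 4 arrays of a series alone, which leave 2 residual degrees of freedom, 0 LINC trends and 0 of all 19053 genes passed for either agent. The counts over the 194 LINC genes also rest on single arrays, as do those over all genes. Leaving out the EEDS vehicle or the 20 μg/mL array left 0 rising and 0 falling EEDS trends, among LINC genes and among all genes. Leaving out the 15 nM array left 0 and 2, beside 457 and 435 of all genes. Leaving out the 60 nM array left 0 and 7, beside 859 and 970. Without the 1.25 μg/mL array 2 rose and 5 fell, beside 836 and 868 of all genes. Without the 3.75 nM array 1 rose and 9 fell, beside 1007 and 1077. Without the 5 μg/mL array 8 rose and 10 fell, beside 1102 and 1065. For helveticoside, 0 falling LINC trends remained without the 1.25 μg/mL, 15 nM or 60 nM array, beside 313, 0 and 0 among all genes. There was 1 without the 5 μg/mL array or the helveticoside vehicle, beside 352 and 230. There were 3 without the EEDS vehicle or the 3.75 nM array, beside 694 and 469. The rising helveticoside count was 2 without the 3.75 nM array, beside 480 of all genes. It was 0 without any other single array, beside 0 to 736 of all genes. Slopes differed between the agents by the limma test for 0 LINC genes, beside 0% of all genes, and 15 of 194 LINC genes had an unadjusted p under 0.05, or 7.73%, beside 525 of 19053 genes or 2.76%.

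LINC00473 fell with the dose of both agents. Its level was 14.35 with the EEDS vehicle and 13.74, 12.54 and 10.80 at 1.25, 5 and 20 μg/mL. In the helveticoside series the level was 14.34 with the vehicle and 13.97, 13.19 and 12.28 at 3.75, 15 and 60 nM. The vehicles were nearly equal, every treated array was below its vehicle, and each dose was below the one before it. The top-dose difference was 11.8-fold with EEDS and 4.17-fold with helveticoside. The limma slopes were -1.19 ± 0.12 (SE) per step with EEDS (adjusted p = 0.01321) and -0.70 ± 0.12 with helveticoside (adjusted p = 0.03043), and the difference between them had an unadjusted limma p of 0.03461 and an adjusted p of 1. A second LINC00473 probe, also well above background on all 8 arrays, had log2 ratios of -4.42 and -2.83 at the top doses.

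LINC01119, between SOCS5 and MCFD2 on chromosome 2, had levels of 9.17, 8.74, 7.26 and 5.74 from the EEDS vehicle to 20 μg/mL. Levels in the helveticoside series were 9.12, 9.06, 7.45 and 5.29, the last not well above background. The lowest doses were close to the vehicles and the drop came at the middle and top doses, by 10.7-fold with 20 μg/mL EEDS and at least 12.6-fold with 60 nM helveticoside. Both limma slopes passed, at -1.17 ± 0.24 (SE) with EEDS (adjusted p = 0.03322) and -1.31 ± 0.24 with helveticoside (adjusted p = 0.03116).

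LINC00205 on chromosome 21 fell from a level of 8.09 with the EEDS vehicle to 6.52, 6.48 and 3.73, and from 7.20 with the helveticoside vehicle to 6.83, 5.31 and 3.35. The 20 μg/mL, 15 nM and 60 nM values were not well above background, so the top-dose differences are at least 9.71-fold and at least 3.30-fold. Its limma slopes were -1.31 with both agents (adjusted p = 0.03446 and 0.04096), and the second LINC00205 probe was well above background on no array. LINC00239, a transcript from chromosome 14, showed the same order of arrays, with 6.99, 6.11, 5.54 and 4.02 in the EEDS series and 6.64, 6.41, 5.51 and 3.88 in the helveticoside series. Both of its top-dose levels were not well above background, for differences of at least 4.53-fold and at least 2.25-fold, and both limma slopes passed (adjusted p = 0.02644 and 0.03268).

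Other LINC genes passed the trend test with EEDS and had the same direction without passing with helveticoside. LINC00173, known from myeloid cells and lung carcinoma, had levels of 9.53, 9.11, 8.01 and 5.88 with EEDS, and of 9.46, 9.0, 8.73 and 7.49 with helveticoside. Each treated array was below its vehicle, by 12.5-fold and 3.92-fold at the top doses, and the limma adjusted p was 0.02022 with EEDS and 0.09913 with helveticoside. LINC00923 had levels of 9.05, 8.19, 7.71 and 6.08 with EEDS and of 9.31, 9.45, 8.52 and 7.68 with helveticoside, where the lowest dose was not below the vehicle (adjusted p = 0.02128 and 0.06889 by limma). With the signal as scanned, the EEDS log2 ratios of LINC00173 and LINC00923 were -2.60 and -1.82 in place of -3.65 and -2.97. LINC00847 went from 10.74 to 8.63 with EEDS (adjusted p = 0.04467 by limma) and from 10.30 to 9.14 with helveticoside (adjusted p = 0.1778 by limma).

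LINC00930 fell with EEDS through 11.10, 10.87, 10.49 and 9.86 (adjusted p = 0.02555 by limma), whereas its levels with helveticoside, 11.93, 11.72, 11.93 and 11.51, had an adjusted p of 0.418. LINC00312 fell by a smaller amount with EEDS, from 10.12 to 9.97, 9.51 and 9.42 (adjusted p = 0.03318 by limma), and stayed between 9.91 and 10.00 on the helveticoside arrays. The difference of its slopes had an unadjusted limma p of 0.01019 and an adjusted p of 1. The remaining falling EEDS trends were those of LINC01001, LINC01098 and LINC02800. LINC01098 was well above background on 1 array, the EEDS vehicle, and LINC02800 on none.

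LINC00467, known to be repressed by the MYCN factor in neuroblastoma, fell with helveticoside through 9.26, 9.32, 8.16 and 7.70 (slope -0.58 ± 0.11, adjusted p = 0.03251 by limma). Its EEDS levels of 9.21, 8.91, 8.36 and 8.05 had an adjusted p of 0.06221. A second LINC00467 probe gave log2 ratios of -0.02 with EEDS and -1.25 with helveticoside at the top doses, so the EEDS difference was seen with 1 of its 2 probes. LINC00471 also fell with helveticoside (adjusted p = 0.02714 by limma), but it was well above background with the helveticoside vehicle alone, at 6.90.

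LINC00339, upstream of the cell polarity GTPase gene CDC42, was 3.82-fold lower with 20 μg/mL EEDS and 3.41-fold lower with 60 nM helveticoside. Its levels were 9.62, 9.53, 8.80 and 7.69, and 9.39, 9.64, 8.73 and 7.62, in nearly the same order in both series. The limma adjusted p was 0.06045 and 0.07809. LINC00313 had log2 ratios of -1.47 and -1.26 at the top doses. LINC00685 and LINC01003 were past 2-fold only with 60 nM helveticoside, at -1.59 and -1.33, where their 20 μg/mL EEDS ratios were -0.39 and -0.75. LINC00999 was at -1.09 with EEDS and -0.39 with helveticoside, and the mean of its 4 probes gave 0.12 with EEDS.

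**Figure D3:**
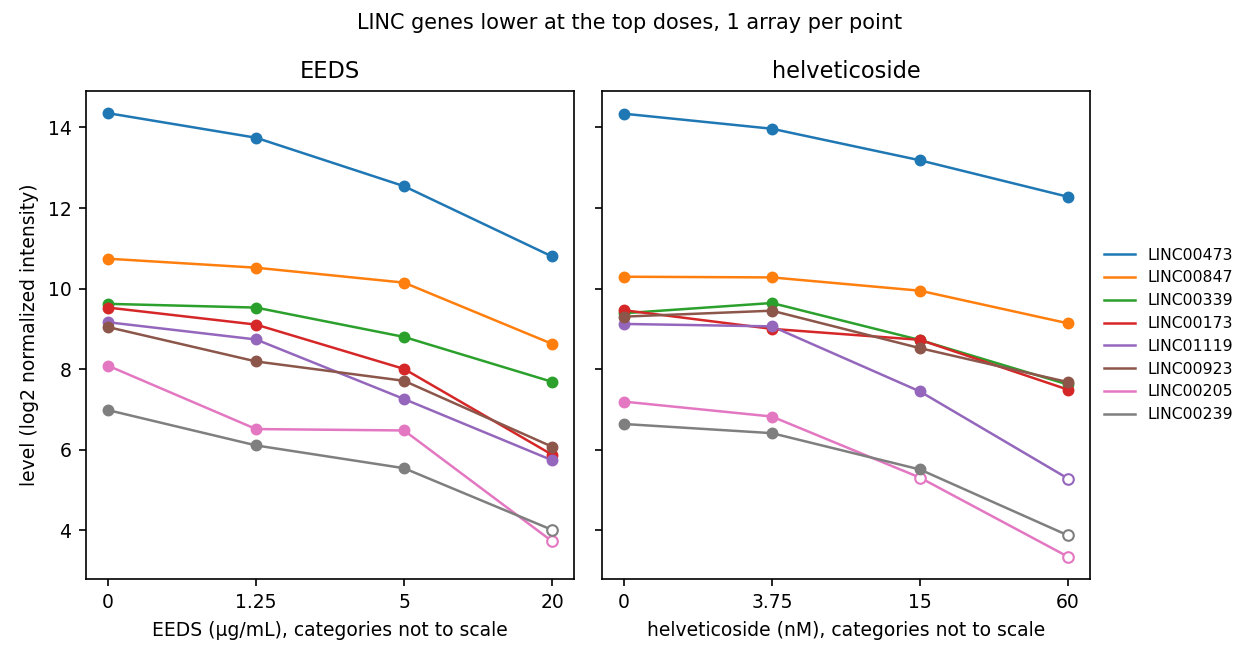
Levels (log2 normalized intensity) of 8 LINC genes that were lower at the top doses, by EEDS dose in μg/mL (left) and helveticoside dose in nM (right), with 1 array per point and open points not well above background. LINC00473 goes from 14.35 to 10.80 with EEDS and from 14.34 to 12.28 with helveticoside.

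LINC00261, a transcript next to FOXA2 that is known from endoderm and lung, was well above background on the 2 vehicle arrays, at 7.03 and 6.39, and on none of the 6 treated arrays, which lay between 3.06 and 4.25. The difference was at least 4.65-fold with 20 μg/mL EEDS and at least 1.89-fold with 60 nM helveticoside, and neither limma trend passed (adjusted p = 0.1028 and 0.2047). FOXA2, the forkhead factor gene beside it, had log2 ratios of -0.36 and -0.17.

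Of 15 LINC genes well above background with the EEDS vehicle and not at 20 μg/mL, 6 were at least 2-fold lower, beside 42% of all such genes: LINC00205, LINC00239, LINC00261, LINC01348, LINC01547 and LINC02593. Of 9 such genes for 60 nM helveticoside, 5 were, beside 52.2%: LINC00205, LINC00239, LINC00471, LINC01119 and LINC01590. In the other direction, 3 of 5 LINC genes well above background only at 20 μg/mL EEDS were at least 2-fold higher, beside 52.5%, and 1 of 5 at 60 nM helveticoside, beside 31.3%. The 3 were LINC00469 with at least 4.87-fold, LINC00879 with at least 3.01-fold and LINC00160 with at least 2.46-fold, and each was well above background on no other array. The 1 was LINC00115, at least 3.33-fold higher at 60 nM, which was well above background on all 4 EEDS arrays.

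Fewer LINC genes rose. LINC00926, a transcript known from B cells, had levels of 6.31, 7.78, 7.72 and 9.23 from the EEDS vehicle to 20 μg/mL. Helveticoside levels were 6.12, 5.87, 6.78 and 7.63, and the 3.75 nM value was not well above background. Every EEDS array was above its vehicle, the top one by 7.54-fold (slope 0.87 ± 0.18, adjusted p = 0.03632 by limma). The top helveticoside dose was 2.84-fold higher (adjusted p = 0.122 by limma), and its log2 ratio of 1.51 was 0.80 with the signal as scanned.

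LINC00938, beside the chromatin remodelling gene ARID2, was higher on all 6 treated arrays by more than 2-fold. Its levels were 6.76 with the EEDS vehicle and 8.30, 8.43 and 8.62 at the doses, and 6.52 with the helveticoside vehicle and 7.63, 8.06 and 8.19. The treated levels did not overlap the vehicle levels, and most of the difference was already present at the lowest dose. The linear trend did not pass (adjusted p = 0.08738 with EEDS and 0.1132 with helveticoside by limma). The top-dose log2 ratios were 1.87 and 1.67, and stayed at 1.33 and 1.19 with the signal as scanned.

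LINC02381, within the HOXC region of chromosome 12, rose with EEDS through 7.64, 7.67, 8.17 and 8.73 (slope 0.38 ± 0.07, adjusted p = 0.03085 by limma). With helveticoside its levels were 7.83, 8.03, 8.35 and 8.73 (adjusted p = 0.05902). LINC00160 made up the third rising EEDS trend (adjusted p = 0.04214 by limma) and was well above background only at 20 μg/mL. Both rising helveticoside trends, of LINC00917 (adjusted p = 0.04799 by limma) and LINC01257 (adjusted p = 0.03239), were on probes well above background on no array.

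LINC01278 on chromosome X was higher on every treated array, with levels of 7.41, 8.15, 8.58 and 8.32 and of 7.15, 7.48, 8.33 and 8.28. LINC01554 had levels of 6.13, 5.93, 5.98 and 5.97 with EEDS and of 6.25, 7.17, 6.94 and 7.61 with helveticoside, so that all helveticoside doses lay above their vehicle and all EEDS doses below theirs. LINC02817 was above its vehicle on the 60 nM array alone, at 10.40 against 9.25, 8.53 and 8.76. LINC00174, LINC00964 and LINC02878 were past 2-fold with 20 μg/mL EEDS, at 1.05, 1.04 and 1.72. LINC02878 was also past 2-fold at 1.25 and 5 μg/mL, with levels of 5.07, 6.69, 6.33 and 6.79 from the EEDS vehicle. Its helveticoside levels were 4.64, 4.85, 5.46 and 6.09, and its probe was well above background on 6 of the 8 arrays. Against the other series' vehicle, the LINC00964 ratio was -0.42.

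**Figure D4:**
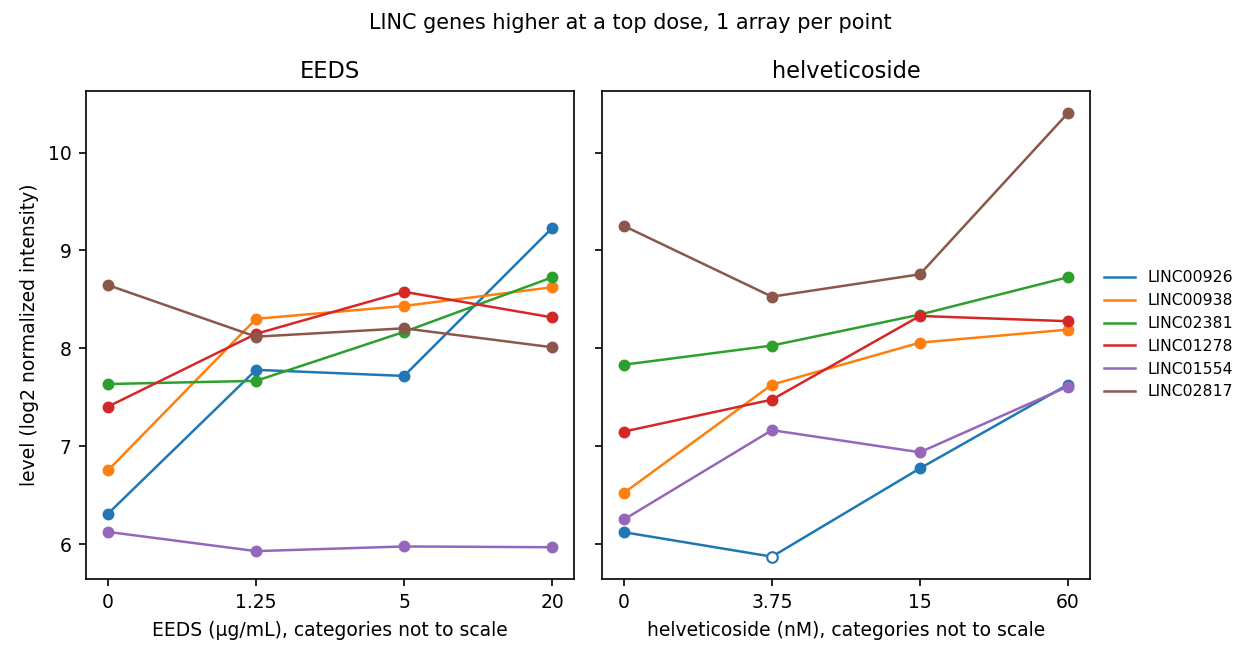
Levels (log2 normalized intensity) of 6 LINC genes that were higher at a top dose, by EEDS dose in μg/mL (left) and helveticoside dose in nM (right), with 1 array per point and open points not well above background. LINC00926 reaches 9.23 at 20 μg/mL EEDS, and LINC00938 is above its vehicle at every dose of both agents.

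Among the 44 LINC genes measured on all arrays, levels went down at every EEDS step in 14 or 31.8% and up at every step in 3 or 6.82%, beside 17.0% and 16.8% of all such genes. With helveticoside the numbers were 4 and 4, or 9.09% each, beside 14.7% and 17.0%. The median log2 ratio of the 44 was -0.20, -0.18 and -0.24 from the low to the top EEDS dose, against -0.01 at each dose for all such genes. With helveticoside it was 0.07, 0.02 and -0.13, against 0.01, 0.00 and 0.02.

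The naming rule also took 10 LINC genes for the mean signal of their probe, which gives no order of transcript amounts: LINC00265, LINC00294, LINC00473, LINC00623, LINC00887, LINC00930, LINC00999, LINC01001, LINC01002 and LINC01347. Of these, LINC00473, LINC00930 and LINC00999 were past 2-fold at a top dose. LINC00623 lay between 13.51 and 14.28 on all arrays, with top-dose log2 ratios of -0.06 and -0.11. LINC00294 was at -0.96 with EEDS (adjusted p = 0.05517 by limma) and -0.59 with helveticoside. LINC01001 fell with EEDS from 18.01 to 17.59, 17.63 and 17.09 (adjusted p = 0.04488 by limma).

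Several LINC genes had probes that disagreed. In 10 LINC genes, at least 2 probes were well above background on all 8 arrays. These probes differed by more than 1 on the log2 scale in 6 at 20 μg/mL EEDS and in 1 at 60 nM helveticoside, and had opposite signs in 4 with each agent. The probes of LINC01001 had EEDS ratios of -0.91, -1.20, 0.52 and 0.89, and those of LINC00265 ran from -0.51 to 1.69. Directions for these genes are those of the brightest probe.

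The vehicles of the series differed by more than 2-fold in 4 of 57 LINC genes, beside 5.3% of all genes: LINC00698, LINC00964, LINC00999 and LINC01126 were higher with the helveticoside vehicle by 1.11, 1.46, 1.13 and 1.32 on the log2 scale. Vehicle and series cannot be told apart here. The SD of the log2 ratio between the vehicles was 0.57 over these 57 genes.

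By RefSeq positions, 22 of the 194 LINC genes overlapped a protein-coding gene. Starts could be compared only where both genes of a pair had a promoter in the table, as 143 of the LINC genes did. Of these, 6 started within 5 kb of an overlapping or nearest protein-coding gene on the opposite strand, so this count is a minimum. LINC00205 and POFUT2, which adds fucose to proteins in the endoplasmic reticulum, start 157 bases apart on opposite strands, so the promoter printed above covers both starts. POFUT2 was at least 3.05 higher on the log2 scale with 20 μg/mL EEDS and at least 1.87 with 60 nM helveticoside (adjusted p = 0.02694 and 0.02966 by limma), opposite to LINC00205. LINC00685 and GTPBP6 start 349 bases apart, and GTPBP6 had log2 ratios of -0.09 with both agents. LINC01547 and SLX9 start 116 bases apart and overlap. SLX9 fell with both agents, with log2 ratios of -1.45 and -1.23 (adjusted p = 0.01395 and 0.01855 by limma), and LINC01547 was at least 1.79 lower on the log2 scale with EEDS.

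LINC00847 overlaps the zinc finger gene ZFP62 on the opposite strand, and ZFP62 was lower by a like amount, at -1.96 with EEDS and -1.69 with helveticoside (adjusted p = 0.05727 and 0.08819 by limma). LINC00473 overlaps the span of PDE10A, a phosphodiesterase that degrades cAMP and cGMP, and PDE10A was at 1.27 and 0.60 (adjusted p = 0.1012 and 0.3469). LINC00923 has ARRDC4, an arrestin-domain gene, as its nearest protein-coding gene on one side, and ARRDC4 rose with both agents, by 3.40 with EEDS and at least 2.32 with helveticoside (adjusted p = 0.01467 and 0.01855). TCF12, beside LINC00926, rose too, at 1.27 and 1.13 (adjusted p = 0.02586 and 0.03818). ARID2, beside LINC00938, was at -0.06 and -0.16. Over 80 pairs of a LINC gene and an overlapping or nearest protein-coding gene measured at 20 μg/mL EEDS, 41 had the same sign, and r was -0.12. At 60 nM helveticoside, 33 of 66 pairs had the same sign, and r was -0.05.

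**Figure D5:**
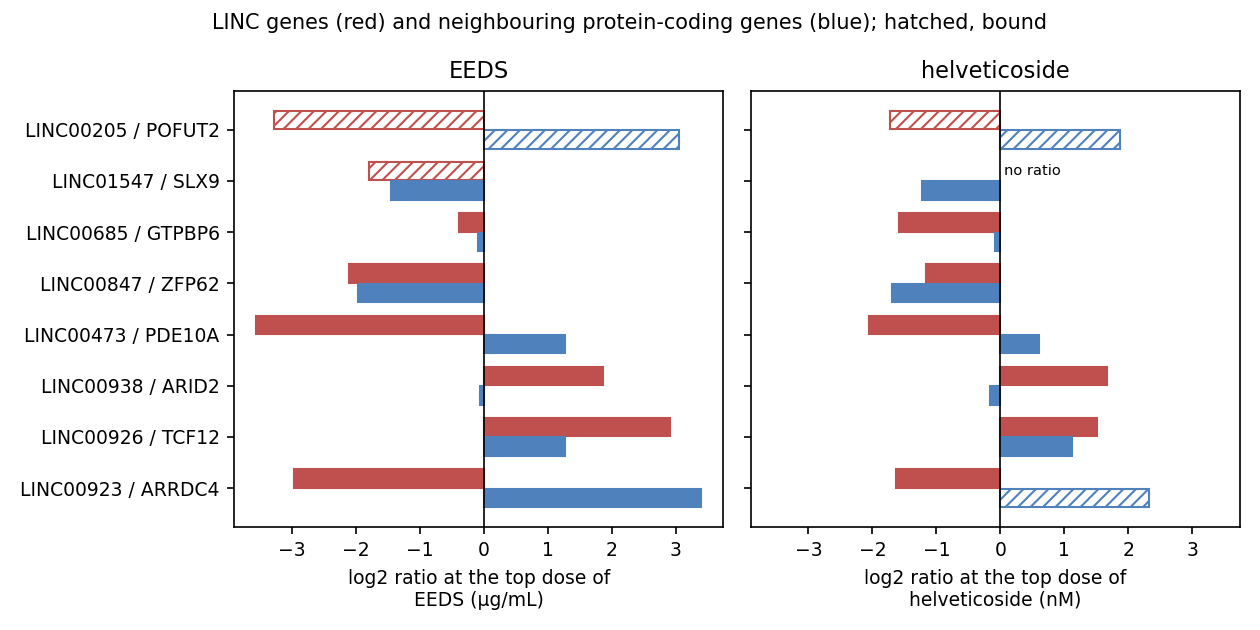
Log2 ratio at the top dose of EEDS (left) and helveticoside (right) for 8 LINC genes (red) and a neighbouring protein-coding gene each (blue), with hatched bars for bounds. LINC00205 and POFUT2 point in opposite directions, LINC00847 and ZFP62 in the same direction.

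Long noncoding RNAs with other names were set beside the LINC genes. Of 50 listed, 35 were matched and 28 were well above background on all 8 arrays. Of these 28, 7 were more than 2-fold higher and 2 lower with 20 μg/mL EEDS, and 6 higher and 3 lower with 60 nM helveticoside. Over all genes well above background on both arrays these shares were 15% and 15.9% with EEDS and 11% and 13% with helveticoside. The median log2 ratio of the list was 0.10 with EEDS and 0.13 with helveticoside, beside 0.01 and 0.03 over all genes well above background on both arrays. In the trend test, 5 of the 35 rose and 3 fell with EEDS, and 2 rose and 2 fell with helveticoside, beside 7.26% and 7.85% of all genes with EEDS and 5.46% and 5.79% with helveticoside. CYTOR rose with both agents, with top-dose log2 ratios of 2.21 and 1.97 (adjusted p = 0.01319 and 0.01646 by limma), as did OIP5-AS1 with 0.97 and 1.21. PVT1, from the MYC locus, rose with EEDS at 2.44 and was at 1.33 with helveticoside (adjusted p = 0.02289 and 0.07567), and the snoRNA host SNHG12 was at 2.61 and 0.98 (adjusted p = 0.01741 and 0.126). TERC, the telomerase RNA, fell with both at -1.70 and -1.11, and so did MIR31HG at -1.99 and -2.25.

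Of 39 listed regulators of noncoding RNA level, 38 were matched, and 37 of these had signal called on every array. Their top-dose median on the log2 scale was 0.25 for EEDS and 0.17 for helveticoside. Over all genes called on both arrays compared it was 0.01 and 0.03. In the trend test, 5 of the 38 rose and 5 fell for EEDS, where 7.26% and 7.85% of all genes did. For helveticoside 4 rose and 4 fell, where 5.46% and 5.79% of all genes did. The nonsense-mediated decay factor gene UPF3B (2.80 and 2.28 at the top doses) and the Integrator subunit gene INTS6 (2.03 and 1.36) rose with both agents. The microRNA processing nuclease gene DROSHA (-1.59 and -1.29), the exosome subunit gene EXOSC3 (-1.26 and -1.02), the 3′ end cleavage gene CPSF3 (-1.46 and -1.27) and the Integrator gene INTS3 (-2.17 and -2.01) fell with both. CRTC2, a coactivator of CREB, rose with both at 1.0 and 0.82 (adjusted p = 0.02309 and 0.03926 by limma). CREB1 was at 0.67 and 0.37 and did not pass (adjusted p = 0.184 and 0.4772 by limma). ATF1, also listed for the CREB pathway, was at 1.41 and 1.01 (adjusted p = 0.04169 and 0.07726 by limma). The other genes listed for it, CREM at 0.85 and 1.29 and SIK1 at -0.45 and 0.65, did not pass with either agent.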

How the data were processed

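RNA of A549 cells was hybridized to 8 single-colour Agilent arrays, 1 per condition, after pooling 3 cultures. For each array, the authors deposited the intensity of every spot from Agilent Feature Extraction, as median signal, local background and a processed signal with the background subtracted, with outlier, saturation and well-above-background calls. Their own processed table, also of intensity values, served here as an alternative. Their methods state a limit of 1.4 times the local background, which removed no gene here, quantile normalization and averaging of duplicate spots.

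Here, control and outlier spots were left out, which removed 22 of 34127 probes, spots of a probe were averaged, and quantile normalization over all 8 arrays preceded the log2 step. A probe was well above background when at least 0.5 of its spots were. Accessions were matched to RefSeq GRCh38.p14 (24809 probes matched to 1 gene), and a gene took the values of its brightest probe on average. For a bound, the dim array took the higher of the lowest signal among its probes well above background and the probe's own. Dose trends were fitted with limma 3.58.1 (R 4.3.3, statmod 1.5.0; trend and robust estimation) with an intercept and a slope per dose step for each series, 4 residual degrees of freedom and Benjamini-Hochberg adjustment over 19053 genes, after a test on simulated data. Because arrays about a line stand in for replicates, these p-values also take departures from a straight line as error. Other values used Python 3.11.15, numpy 2.4.6 and pandas 2.3.3.

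The genes named are those with an adjusted p under 0.05, those past 2-fold or with a bound of at least 2-fold at a top dose, the 10 brightest, and LINC00473, LINC00261 and LINC00312; the other genes well above background on all 8 arrays are given as counts and ranges. Probes of LINC00511 and LINC00460 were not matched. The members, gene lists and tests were chosen with earlier results of these data known. Alternatives were other background corrections and scalings, the deposited table, the mean of probes, other filters, a 1.5-fold threshold, the other vehicle, single arrays left out and other trend predictors.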

Additional observations from a re-analysis of the deposited data

Results flagged for a closer look

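LINC01554, LINC00887 and LINC00494, all well above background on all 8 arrays, are listed because every dose of one agent lay on one side of its vehicle and every dose of the other agent on the opposite side. The top-dose log2 ratios with EEDS and with helveticoside were -0.16 and 1.36 for LINC01554, -0.20 and 0.074 for LINC00887, and -0.02 and 0.14 for LINC00494. The doses of the agents are not matched, and the difference was not tested on single doses, which have 1 array each. In the dose trend, the difference of slopes had an adjusted p of 1 by limma for each of the 3. The ratios of LINC00887 and LINC00494 were each smaller in size than the SD of 0.57 between the vehicles. A second LINC00887 probe, also well above background on all 8 arrays, had EEDS levels of 7.96, 8.81, 8.29 and 6.53 from the vehicle to 20 μg/mL, with the low and middle doses above the vehicle, so the pattern was seen with 1 of its 2 probes.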

How the results depend on the processing

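Of 30 log2 ratios past 2-fold at a top dose, set against 7 alternatives each, 208 of 210 values kept their direction and 164 stayed past 2-fold. The exceptions in direction were LINC00964 with EEDS against the other series' vehicle (-0.42) and LINC00999 with EEDS as the mean of its probes (0.12). Counts past 2-fold are given below as higher and lower where they moved by more than 1.5 times; the cause was not tested. With the signal as scanned and with normexp alike, they became 1 and 0 at 1.25 μg/mL EEDS, 1 and 3 at 5 μg/mL, 2 higher at 20 μg/mL and, over the helveticoside doses, 0 higher, then 0 and 2, then 1 higher. With the 75th percentile, 3 were lower at 1.25 μg/mL, 3 higher at 20 μg/mL, 0 higher at 3.75 nM and 1 higher at 15 nM. Quantile normalization within series gave 1 higher at 3.75 nM, and the mean of probes 0 lower at 1.25 μg/mL. The deposited table gave 0 higher with 3.75 nM, 0 higher and 2 lower with 15 nM, and 1 higher and 5 lower with 60 nM helveticoside. Against the other series' vehicle there were 3 and 12, 3 and 14 and 16 lower over the EEDS doses, and 7 and 1, 9 higher and 11 higher over those of helveticoside. Requiring a call on all 8 arrays, which tests fewer genes, gave 2 and 0, 2 and 3 and 3 higher with EEDS and 2 lower at 15 nM. Without a filter, and with the limit of 1.4 times the background, which removed no LINC gene, the counts were 9 and 6, 8 and 17, 14 and 26, 6 and 10, 14 and 19 and 16 and 22. A threshold of 1.5-fold gave 10 and 6, 15 lower, 17 lower, 5 and 3 and 8 and 10 up to 15 nM.

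For the dose trends, the 75th percentile gave 24 falling with EEDS and 1 rising with helveticoside, beside 2184 and 1253 of all genes. Normexp gave 12 falling with helveticoside, beside 1401. With the top and middle doses against low dose and vehicle, 0 rose and 0 fell with EEDS, beside 4 and 6 of all genes. With helveticoside 1 rose and 0 fell, beside 4 and 3. With only the 4 arrays of a series all 4 counts were 0, for LINC genes and for all genes. Leaving out 1 array at a time gave 0 to 8 rising and 0 to 13 falling EEDS trends, beside 0 to 1255 and 0 to 1365 of all genes. It gave 0 to 2 rising and 0 to 5 falling helveticoside trends, beside 0 to 736 and 0 to 743. The difference of slopes stayed at 0 LINC genes under every alternative run. Matching by a gene name column was not run, because the files used here have no such column. No paired analysis was possible because each group has 1 array. For LINC genes, signal over background is the limit: 101 of 194 were well above background on no array.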

Other observations

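Of the 194 LINC genes, 23 were well above background on exactly 1 array, or 11.9%, beside 4.65% of all genes. LINC01590 had a level of 6.94 with the helveticoside vehicle and 2.86 to 3.34 on the other 7 arrays, and LINC00469 had 6.84 at 20 μg/mL EEDS and 3.0 to 3.19 elsewhere. LINC00879 had 6.14 at 20 μg/mL EEDS and 3.06 to 3.46 elsewhere. Each of these values comes from 1 array and has no replicate.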
